A study of Mus musculus with 2 samples.

Results

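Mouse chromosome 13 was described here by its replication timing in embryonic stem cells, the order in which its DNA is copied during S phase. All 17477 positions of chromosome 13 were taken, of 384794 positions with a value in all, from the chromosome name in the deposited table. The chromosome was chosen by the measured spread of its scores, which was narrower than on the other autosomes, so its spread and everything computed from the same scores is a description and was not tested. The cells were of the 46C line (strain 129P2/Ola), cultured in the presence of leukemia inhibitory factor, which keeps embryonic stem cells undifferentiated. They were given 50 µM BrdU, a thymidine analogue that marks new DNA, for 2 h, and DNA content was used to sort an early fraction and a late fraction of S phase. BrdU-labelled DNA of 10000 cells was precipitated with an antibody, amplified over the whole genome and sequenced. The early fraction gave 1 library and the late fraction 1 library, from cells of the same line, strain and culture conditions. The authors joined both in 1 score per position, smoothed over 300 kb, and there were no replicates, so no SD and no test accompany the values. Positive scores were taken as early and negative scores as late from the order of the fractions in the table's name, which is an assumption. Its scale, log base and zero are unknown, and so is the read depth.

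Replication of mammalian chromosomes proceeds in domains that are long compared with a gene, in each of which many origins fire at about the same time. Early domains are known for dense genes and open chromatin, and late domains for sparse genes, silent tissue-specific gene clusters and contact with the nuclear lamina. Between them lie transition regions, through which forks travel from an early domain into a later one, and domains of mid S phase. Mouse chromosome 13 carries the largest histone gene cluster of the genome, tRNA genes, vomeronasal and olfactory receptors, the prolactin family of placental and pituitary hormones, serpins and a cluster of KRAB zinc finger repressor genes.

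The sequences printed here are from RefSeq, build GRCm38.p6, and were chosen because they place like sequences on opposite sides of 0 or stand at the highest and lowest score of a gene family. H2bc12 and H2bc3 both encode histone H2B, and they had scores of 1.01 and -0.80. Zfp58 was the highest gene with a Zfp symbol on the chromosome at 1.66, and Prl5a1 the lowest prolactin family gene at -1.62. Each run is the 250 bases before the gene's start, 5′ to 3′ on the gene's strand, and matches on either strand of 3 motifs are in capitals. TATAAA is the sequence of the TATA box, which is known to work close before the start. CCAAT is known from many histone promoters. ATTTGCAT is the octamer known from H2B promoters.
H2bc12, chr13:22035571-22035820, plus strand: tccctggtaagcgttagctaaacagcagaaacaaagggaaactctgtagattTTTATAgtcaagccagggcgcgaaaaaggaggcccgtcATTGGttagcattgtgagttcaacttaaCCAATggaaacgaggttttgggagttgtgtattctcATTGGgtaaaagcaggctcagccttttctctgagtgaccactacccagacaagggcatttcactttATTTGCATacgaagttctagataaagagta
H2bc3, chr13:23746484-23746733, plus strand: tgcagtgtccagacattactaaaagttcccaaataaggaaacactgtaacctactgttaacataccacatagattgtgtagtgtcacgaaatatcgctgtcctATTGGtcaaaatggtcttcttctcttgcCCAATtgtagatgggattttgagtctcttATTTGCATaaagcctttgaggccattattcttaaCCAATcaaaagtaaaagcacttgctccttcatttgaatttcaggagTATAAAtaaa
Zfp58, chr13:67500523-67500772, minus strand: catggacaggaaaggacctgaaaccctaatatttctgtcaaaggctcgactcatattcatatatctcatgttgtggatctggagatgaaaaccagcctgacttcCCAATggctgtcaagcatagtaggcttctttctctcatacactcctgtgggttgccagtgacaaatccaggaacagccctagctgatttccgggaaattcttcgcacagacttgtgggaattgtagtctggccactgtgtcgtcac
Prl5a1, chr13:28142234-28142483, plus strand: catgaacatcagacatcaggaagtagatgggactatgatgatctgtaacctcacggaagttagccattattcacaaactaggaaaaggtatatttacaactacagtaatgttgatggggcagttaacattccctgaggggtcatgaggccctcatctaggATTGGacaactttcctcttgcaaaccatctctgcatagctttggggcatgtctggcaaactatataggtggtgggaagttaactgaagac
In these runs both H2B promoters held CCAAT 3 times and ATTTGCAT 1 time, while their genes lay on opposite sides of 0. In H2bc3 the TATAAA match ran in the direction of the gene and began 10 bases before the start. In H2bc12 the match was on the opposite strand, where the run reads TTTATA, and began 198 bases before the start. Zfp58 and Prl5a1 each held CCAAT 1 time and neither of the other motifs in the run shown. No match overlapped a match of another motif.

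The mature microRNAs shown next are some of those whose seed also occurs at loci on other chromosomes, chosen after their values were seen, and the microRNA of the chromosome with the lowest score. Capitals mark the seed, bases 2 to 8, which pairs with target messages.
mmu-let-7a-5p: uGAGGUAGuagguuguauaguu
mmu-let-7d-5p: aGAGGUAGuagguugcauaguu
mmu-let-7f-5p: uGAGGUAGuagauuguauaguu
mmu-miR-449a-5p: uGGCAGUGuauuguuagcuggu
mmu-miR-449c-5p: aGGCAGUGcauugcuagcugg
mmu-miR-27b-3p: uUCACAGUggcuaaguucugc
mmu-miR-9-5p: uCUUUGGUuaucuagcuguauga
mmu-miR-3961: uGCCCUCAgcucaguugga
The 3 let-7 microRNAs share the seed GAGGUAG, and both miR-449 microRNAs share GGCAGUG. let-7 promotes differentiation and is held low in embryonic stem cells, miR-449 is known from multiciliated cells, and miR-9 from neural progenitors.

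The narrow range, by which the chromosome was chosen, can be given by 3 measures of spread of the same scores. The interquartile range of the score was 1.56 on chromosome 13, 1.60 on chromosome 3, the narrowest of the other 18 autosomes, and 2.34 on chromosome 11, the widest. The range from percentile 10 to percentile 90 was 2.47 on chromosome 13 and 2.52 on chromosome 3, and the SD over positions was 0.909 and 0.976. Chromosome 13 ranked 1 of 19 on each. Chromosome X, with an interquartile range of 1.31, was narrower still, and so was chromosome Y, which had only 232 positions and an interquartile range of 1.14. Chromosome 13 and chromosome 3 differed in where their scores lay. The median was -0.22 on chromosome 13 and -0.83 on chromosome 3, and 24.6% of positions on chromosome 13 lay below -1, against 44.8% on chromosome 3.

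Scores near 0 were common and strongly early scores were rare on chromosome 13. Of its positions 42.2% lay above 0, against 43.9% on the other autosomes pooled and 43.8% on all autosomes. Within 0.5 of 0 lay 32.1% on chromosome 13, against 19.5% on the other autosomes pooled (15.1% to 22.3% on single ones) and 20.1% on all autosomes. Above 1 lay 11.9% on chromosome 13 and 23.5% on the other autosomes, and above 1.5 lay 2.37% and 10.2%. The share above 1.5 was the lowest of the 19 autosomes. At the late end the difference was smaller, since 24.6% of chromosome 13 and 33.2% of the other autosomes lay below -1, while 5.10% and 5.28% lay below -1.5. The highest and lowest scores of the chromosome were 1.95 and -1.87. The share within 0.5 of 0 ran from 26.8% to 40.4% over 5 equal lengths of chromosome 13. Among 90 such lengths of the other autosomes, 5 of each, it ran from 5.12% to 35.1%, with 7 at or above the lowest value of chromosome 13. The median difference between neighbouring positions was 0.0148 on chromosome 13, which ranked 2 from the highest of 19. It ran from 0.0119 to 0.0149 on the other autosomes, with a median of 0.0131.

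**Figure D1:**
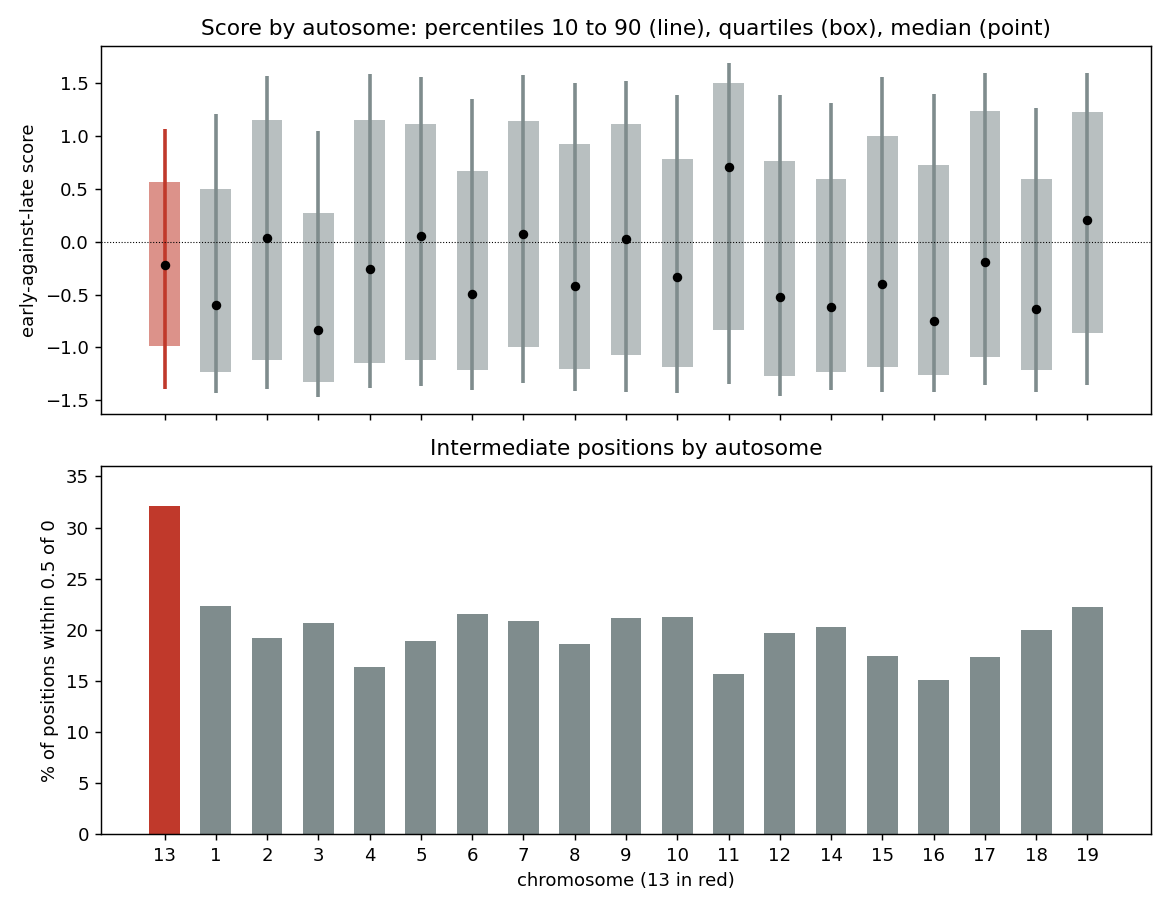
The upper panel plots the early-against-late score of the 19 autosomes (point, median; box, quartiles; line, percentiles 10 to 90), and the lower panel the percentage of positions within 0.5 of 0 as bars, with chromosome 13 in red. The box of chromosome 13 spans 1.56, and its bar of 32.1% stands above the 15.1% to 22.3% of the others.

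Chromosome 13 was cut into short domains. A domain was a run of at least 300 kb with scores of 1 sign, ended by a sign change or by a gap of over 300 kb between positions. Chromosome 13 held 46 early domains, covering 41.6 Mb, and 55 late domains, covering 65.5 Mb, which made 8.67 domains per 10 Mb against 4.80 to 6.88 on the other autosomes. The median length was 0.687 Mb for early and 0.724 Mb for late domains of chromosome 13, against 0.920 Mb and 1.25 Mb on the other autosomes. No domain of chromosome 13 reached 5 Mb, while 19 early (3.01%) and 48 late domains (7.25%) of the other autosomes did. None of chromosome 19 did either, and the longest early domain of chromosome 18 was 3.46 Mb. Under 1 Mb lay 36 of the 46 early (78.3%) and 33 of the 55 late domains (60%), against 53.4% and 41.7% on the other autosomes. Domain levels were also closer to 0. The median of the domain medians was 0.76 for early and -0.66 for late domains on chromosome 13, and 0.90 and -0.96 on the other autosomes. On the early side chromosome 3 (0.71) and chromosome 2 (0.73) had lower levels, and early domains of chromosome 3 were as short (median 0.684 Mb). On the late side single other autosomes had -1.13 to -0.85. A median within 0.5 of 0 was found in 13 early (28.3%) and 20 late domains (36.4%) of chromosome 13, against 15.7% and 16.6% elsewhere.

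Length and level went together, and in some length classes levels differed from the other autosomes on both sides of 0. The 4 early domains of 2 Mb or more on chromosome 13 had a median level of 0.83, against 1.36 for the 122 such domains of the other autosomes. The 7 late domains of that length had -1.15, against -1.22 for 208 elsewhere. Among domains of 0.5 to 1 Mb the 23 early ones of chromosome 13 had 0.71, against 0.84, and the 16 late ones -0.61, against -0.78. Among the shortest, of 0.3 to 0.5 Mb, the order on the early side was the other way round, with 0.62 for 13 domains of chromosome 13 and 0.50 for 121 elsewhere. The 17 late domains of that length on chromosome 13 had -0.37, against -0.44 for 103 elsewhere. A score smoothed over 300 kb mixes a domain of that length with its neighbours, so levels of the shortest domains are blended ones.

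**Figure D2:**
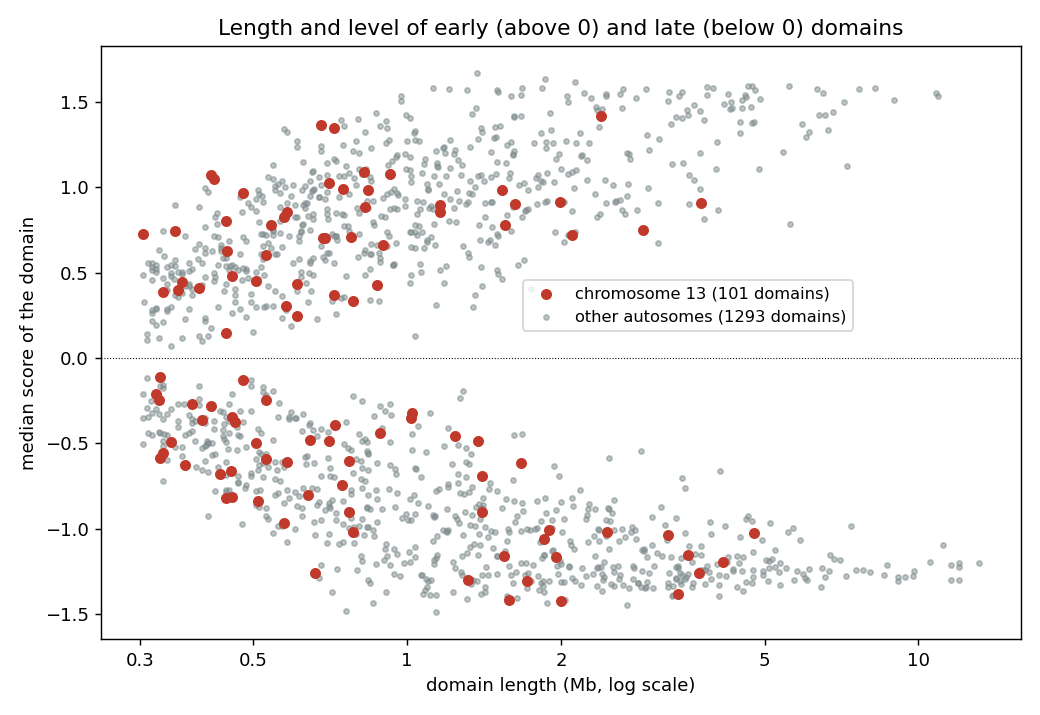
Each point is 1 domain, with its length in Mb on a log axis and its median score, for chromosome 13 (red, 101 domains) and the other autosomes (grey, 1293 domains). Red points end at 3.76 Mb on the early side and 4.77 Mb on the late side, and 1 of the 4 early red points beyond 2 Mb lies above 1.

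The longest early domain of chromosome 13 ran from 96316107 to 100071273 (3.76 Mb, median 0.91, 33 genes). It held Polk (0.73), a DNA polymerase that copies past damage, Tnpo1 (1.203), a nuclear import receptor, and Map1b (1.18), a microtubule protein of neurons. The next, from 61705222 to 64598422 (2.89 Mb, median 0.75, 25 genes), held Ptch1 (0.75), the hedgehog receptor, Fancc (0.82), a Fanconi anaemia gene of DNA crosslink repair, and Cdc14b (1.71), a cell cycle phosphatase. The earliest of the long domains ran from 53985049 to 56374964 (2.39 Mb, median 1.42) and held 53 genes. It contained the highest position of the chromosome, 55397409 with a score of 1.95, beside Slc34a1, a renal phosphate transporter gene, and Rgs14, a regulator of G protein signalling. Its genes Ddx46 (1.87), a helicase of splicing, Nsd1 (1.50), a histone methyltransferase, Pitx1 (1.25), a factor of hindlimb and pituitary, and Fgfr4 (1.21), a growth factor receptor, were above 1. Towards its ends Drd1 (0.41), a dopamine receptor, and Cxcl14 (0.50), a chemokine, were lower. The remaining long early domains, of 2.10 Mb (median 0.72, 17 genes) and 1.99 Mb (median 0.91, 40 genes), held the protease-activated receptor genes F2r (1.22) and F2rl1 (1.30) and the largest zinc finger cluster.

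Late domains were longer and poorer in genes. The 5 longest ranged from 3.39 to 4.77 Mb. The longest, from 76095595 to 80864674 (median -1.03, 8 genes), held Mctp1 (-1.48), a calcium-binding membrane protein, and Nr2f1 (-0.14), a nuclear receptor of neural development, whose local score was close to 0. The domain from 81880412 to 86030039 (4.15 Mb, median -1.196) had 4 genes, among them Mef2c (-0.97), a factor of muscle and neurons, and Rasa1 (-0.44), a Ras inhibitor. The domain from 86380366 to 90094215 (3.71 Mb, median -1.26) likewise had 4 genes, which were the matrix genes Edil3 (-1.52), Hapln1 (-1.18) and Vcan (-0.53) and the DNA repair gene Xrcc4 (-0.41). The domain from 69780855 to 73168551 (3.39 Mb, median -1.38) had 6 genes, among them the developmental factors Irx1 (-1.55) and Irx2 (-0.97) and the protease gene Adamts16 (-1.44). The domain from 25074181 to 28610513 (3.54 Mb, median -1.15) was the exception in gene number, with 26 genes, 23 of them prolactin family members. The lowest position of the chromosome, 10713230 with a score of -1.87, lay between Chrm3 (-1.49), a muscarinic acetylcholine receptor, and Ryr2, the calcium release channel of heart muscle. Early domains of chromosome 13 held 11.9 protein-coding genes per Mb and late domains 3.82, against 15.8 and 3.55 on the other autosomes, and 8 late domains of chromosome 13 held no protein-coding gene.

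Intermediate stretches, runs of at least 300 kb within 0.5 of 0, took up 20.3% of chromosome 13. There were 43, together 23.6 Mb, with a median length of 0.552 Mb, and 40 of them contained a change of sign. On the other autosomes such stretches took up 9.79% (6.89% to 12.3% on single autosomes), with a median length of 0.448 Mb. A change of sign was in 386 of those 444. The longest of chromosome 13 ran from 45052114 to 46569858 (1.52 Mb, scores from -0.45 to 0.48) and changed sign 6 times. It held Atxn1 (-0.45), whose repeat expansion causes a spinocerebellar ataxia in humans, Rbm24 (-0.24), a splicing factor of muscle, Gmpr and Stmnd1. The next, from 3410989 to 4417023 (1.01 Mb), held 5 aldo-keto reductase 1C genes, which act on steroids and prostaglandins. The one from 103863313 to 104846423 (0.983 Mb, 12 genes) held Cenpk (0.23), a kinetochore subunit, Trim23 (0.18), a ubiquitin ligase, Adamts6 (-0.41), a matrix protease, and Erbin. A stretch from 18570878 to 19370473 (0.800 Mb) held Amph and Vps41 and the T cell receptor gamma genes. Another, from 23872622 to 24654751 (0.782 Mb), began inside the second histone cluster, held the testis histone genes H2bc1 and H2ac1 (-0.13 each) and reached over Carmil1, a regulator of actin filaments.

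Sign changes were frequent but not steeper than elsewhere. Only sign changes between 2 adjoining domains, each of at least 300 kb, were counted here, and those beside shorter runs were left out. The chromosome had 68 of them, or 5.84 per 10 Mb, against 4.17 on the other autosomes. The change was read over the surrounding 300 kb. The median change was 1.47 on chromosome 13 and 1.54 on the other autosomes. The steepest, of 2.61, lay at 101065978. Its nearest named genes, on the early side, were the zinc transporter gene Slc30a5 (1.39), the cyclin gene Ccnb1 (1.32) and the kinetochore gene Cenph (1.32). They were not directly beside it, since Ccnb1 ended at 100786486 and Cenph at 100775903. At 59994930 the score changed by 2.33 between Tut7 (1.64), which uridylates RNA, and Gas1 (-0.97), a hedgehog co-receptor gene. At 23616714 it changed by 2.32 inside the second histone cluster, and at 8692113 by 2.30 inside Adarb2. The shallowest of the 68, of 0.56, lay at 34731485.

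Genes of chromosome 13 followed the same shift towards 0. A value at the gene midpoint was found for 811 of 829 protein-coding genes, with a median of 0.52 (quartiles -0.28 and 1.04), against 1.08 (-0.02 and 1.54) for 19497 genes of the other autosomes. Above 0 lay 532 genes (65.6%), against 74.7% on the other autosomes and 74.4% on all autosomes. Chromosome 13 was not the lowest autosome here, since chromosome 6 had a gene median of 0.50 and 61.6% above 0. Chromosome 3 was close, with 0.54 and 64.1%. Below 0 lay 279 genes, where all autosomes had 25.6%. Within 0.5 of 0 lay 239 (29.5%), against 16.7% elsewhere and 17.2% on all autosomes. The scarcity of strongly early genes was the larger part of the difference, since 217 genes (26.8%) lay above 1, against 52.7%, and 65 (8.01%) lay below -1, against 9.63%. The sign differed between the 2 ends of 44 of 810 genes (5.43%), against 2.77% elsewhere.

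Gene-dense windows had higher scores along the chromosome, more loosely than on the other autosomes pooled. Over 117 windows of 1 Mb on chromosome 13 the Spearman correlation of gene number and mean score was 0.66 and the Pearson correlation 0.48, against 0.79 and 0.65 over 2270 windows of the other autosomes. The pooled value also holds differences between chromosomes, and the other autosomes were not correlated one by one. Neighbouring windows share domains and all share 1 pair of libraries, so the correlations are descriptions. The 6 windows with 20 genes or more had a median score of 0.41, against 1.38 for 258 such windows elsewhere. Those 6 windows were the histone, olfactory and vomeronasal receptor region (3 windows with means of 0.66, -0.35 and 0.16), the prolactin window (-1.26), the Nsd1 and Pitx1 window (1.49) and the zinc finger window (1.04). The 6 windows without a gene had a median of -1.35, against -1.26 for 262 elsewhere. Within a window the scores of chromosome 13 ranged more, by a median of 1.68 against 1.38, while the window means ranged less, with an interquartile range of 1.17 against 1.77.

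The genes of 6 functional lists, 167 in all with a value, had medians from 1.05 for metabolic genes to -0.30 for channel, synapse and very long genes. Over all protein-coding genes of the chromosome 65.6% lay above 0, 29.5% lay within 0.5 of it and the median was 0.52. Genes listed under cell cycle, replication and repair lay above 0 in 25 of 29 (86.2%, median 0.85) and within 0.5 of it in 8 (27.6%). The highest were Cdc14b, Nsd1, Mtrex (1.47), a helicase of the nuclear exosome, and Rad17 (1.43), a checkpoint clamp loader. The lowest were Plk2 (-0.75), a polo-like kinase, Xrcc4, Rbm24 and Ccnh (-0.19), the cyclin of the CDK-activating kinase. The list is mixed, since Nsd1, Mtrex and Rbm24 are described here by other functions. Gmnn (0.97), which encodes the licensing inhibitor geminin, and Tert (0.97), the telomerase catalytic subunit, were both above 0. Mitochondrial, ribosomal and metabolic genes lay above 0 in 27 of 33 (81.8%, median 1.05) and within 0.5 of it in 7 (21.2%). They ran from Ddx46 and Eif4e1b (1.84), a translation factor of oocytes, down to Mtrr (-0.75), methionine synthase reductase, Mrps30 (-0.75), a mitochondrial ribosomal protein, and Uqcrfs1 (-0.74), the Rieske protein of respiratory complex III.

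Genes listed as developmental transcription factors lay above 0 in 18 of 27 (66.7%, median 0.52) and within 0.5 of it in 7 (25.9%). These shares were close to those of all protein-coding genes of the chromosome. The list also held genes not known as transcription factors, Ofcc1 among them. Jarid2 (1.52), a cofactor of Polycomb complex PRC2 in embryonic stem cells, was the highest, followed by Pitx1, Rreb1 (1.22) and Otp (1.10), a hypothalamic factor. Ofcc1 (-1.66), Irx1, Irx2 and Mef2c were the lowest of the list. Signalling genes lay above 0 in 21 of 29 (72.4%, median 0.46) and within 0.5 of it in 11 (37.9%). They ran from F2rl1 and Il6st (1.24), which encodes the gp130 subunit of the receptor for leukemia inhibitory factor, to Inhba (-1.21), an activin subunit, Fgf10 (-1.02), a growth factor of lung and limb, and Gas1. Matrix and adhesion genes lay above 0 in 7 of 18 (38.9%, median -0.26) and within 0.5 of it in 8 (44.4%), with the desmosome gene Dsp (1.14) the highest and Edil3 the lowest. Channel, synapse and very long genes lay above 0 in 14 of 31 (45.2%, median -0.30) and within 0.5 of it in 12 (38.7%). Map1b, the amino acid transporter genes Slc6a19 (1.17) and Slc6a18 (1.11) and the sarcomere gene Actn2 (1.10) were the highest. Chrm3, Mctp1 and the serotonin receptor gene Htr1a (-1.30) were among the lowest. With zero at the autosomal median of -0.30, an alternative for these lists chosen after seeing the data, 9 of the 18 matrix genes and 16 of the 31 channel, synapse and very long genes lay above it, so neither list was then mostly late.

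The histone genes, which package DNA as it is copied, were split between early and late. Of 54 histone genes on chromosome 13, 34 lay above 0 (63.0%, median 0.43), against 21 of 22 (95.5%, median 1.46) on the other autosomes. With zero at the autosomal median, an alternative chosen after seeing the data, 41 of the 54 lay above it and 13 below. The 54 genes took 32 distinct values, since several neighbours share the nearest position. The first cluster, 21715711 to 22043658, had 18 of 22 genes above 0, from H2bc13 at -0.11 to H2ac12 at 1.05. The second cluster, 23531044 to 23934913, had 15 of 31 above 0 and 16 below. Along it the score ran downwards from H4c8 (0.97) through H2ac8 (0.43), H2bc6 (0.13) and H1f4 (-0.03) to H2ac6 (-0.50), H1f2 (-0.79) and H4c1 (-0.81), before it returned to -0.13 at H2bc1. Genes of the same histone type, and among them the linker histone genes H1f3 (0.64) and H1f1 (-0.81), therefore stood on both sides of 0. H2bl1 (1.19), a variant far from the clusters, was the highest. The clusters are about as long as the smoothing, so the slope across the second one is that of the smoothed score and not of single genes. The treatment of reads that match several near-identical genes is unknown, which bears on the histone genes and likewise on the vomeronasal, prolactin, zinc finger and Naip clusters.

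Transfer RNA genes beside the histone genes were almost all early. Chromosome 13 held 105 of the 386 autosomal tRNA genes, and 103 of them lay above 0 (98.1%, median 1.32), against 86.8% on the other autosomes (median 1.36) and 89.9% on all autosomes. This class was chosen after its values were seen. One block, 21160785 to 22050767, had 59 genes, and the other, 23270421 to 23530419, had 45 genes, all between 0.78 and 1.52. The second block ended directly before the second histone cluster began, on the early side of the sign change. The butyrophilin genes Btn1a1 (1.52), a protein of milk fat, and Btn2a2 (1.43) lay within that block.

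Receptor genes beside and between the histone clusters lay mostly below 0. Of 36 vomeronasal receptor genes, from 22087878 to 23250323, 31 lay below 0 (median -0.26), against 210 of 255 on the other autosomes (median -0.84). They were highest at the 2 ends, Vmn1r188 (0.57) and Vmn1r223 (0.52), lowest at Vmn1r201 (-1.32), and 22 of 36 lay within 0.5 of 0. The 13 olfactory receptor genes were also split, with 5 above 0 (median -0.21), from Olfr1368 (1.12) to Olfr11 (-0.47). On the other autosomes 895 of 1090 olfactory receptor genes lay below 0 (median -0.83). With zero at the autosomal median, 14 of the 36 vomeronasal and 4 of the 13 olfactory receptor genes of chromosome 13 lay below it, so most were then above.

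The prolactin family was late throughout. All 26 genes lay below 0 (median -1.26), none within 0.5 of it. The main cluster, 27057570 to 28151595, ran from Prl3c1 at -0.999 to Prl5a1 at -1.62, with prolactin itself, Prl, at -1.41. The 3 Prl2c genes of a separate block had -0.86 to -0.78, with a gap of 246 kb without positions inside that block. Prl2c2 lay in the gap and took its value from a position 58983 bp away, while Prl2c3 and Prl2c5 had positions 1044 and 1077 bp from their midpoints. The placental cathepsins, another family expanded in rodents, were late as well. In their block, 60798250 to 61570170, all 8 genes with a value lay below 0, from Ctsll3 (-0.49) to Cts7 (-1.49), while Ctsl (1.08), the widely expressed cathepsin L, stood apart in an early domain. Clade B serpins, which inhibit proteases, lay below 0 in 13 of 16 (median -0.80), from Serpinb9g (-1.37) to Serpinb6a (0.92) at the high-coordinate end of the cluster. All 12 on the other autosomes lay below 0 (median -1.27).

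**Figure D3:**
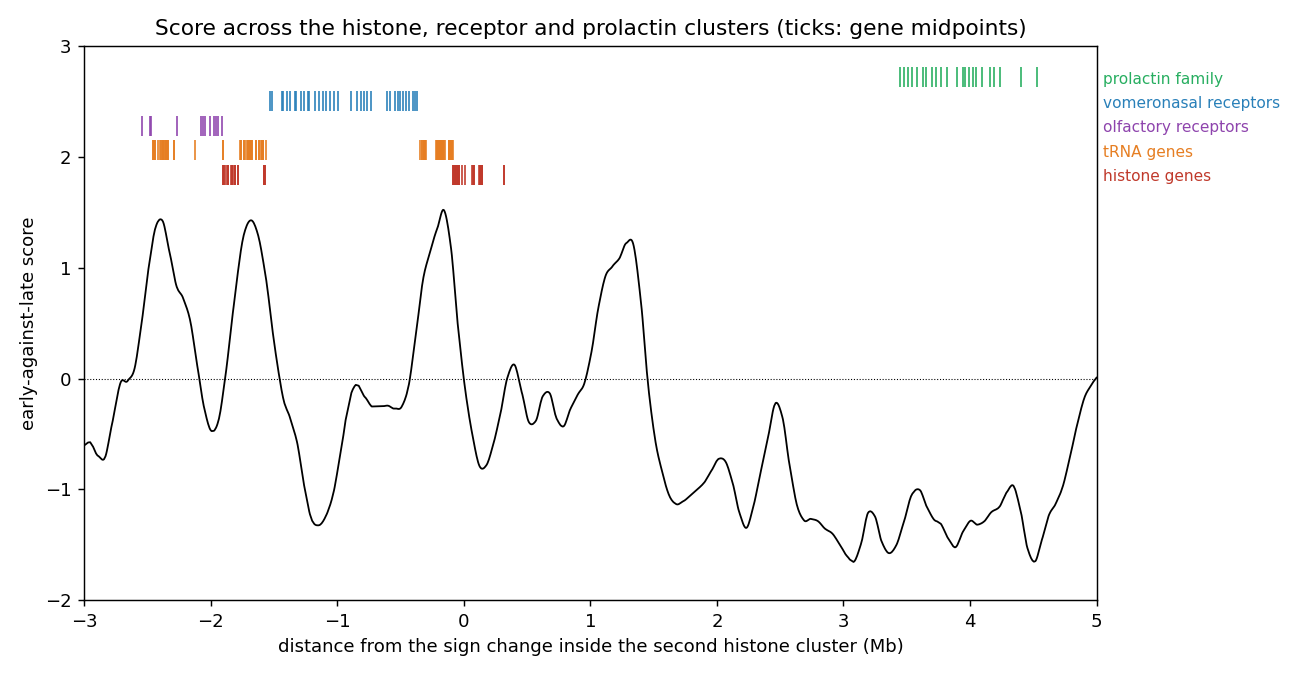
The line is the early-against-late score over 8 Mb of chromosome 13, against the distance in Mb from the sign change inside the second histone cluster, and ticks mark gene midpoints of 5 families. The score passes from early to late within the second row of histone ticks, while most tRNA ticks stand over early peaks and prolactin ticks over scores near -1.26.

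Genes with a zinc finger symbol were early throughout. The family was taken by symbols that begin with Zfp, Zkscan, Zscan, Zbed, Znf or Rsl, so zinc finger genes with other symbols were not counted. All 44 with a value lay above 0 (median 0.94), against 331 of 376 (88.0%, median 1.24) on the other autosomes. The cluster of 26 genes from 66670274 to 67827000 ran from Zfp640 (0.53) up to Zfp874b (1.63) and Zfp58 (1.66) and down again to 0.76 at Zfp738, with every gene at its own value. The position nearest to Zfp640 was 54501 bp away. It contains Rsl1 (0.90) and Rslcan18 (0.77), known as regulators of sex-limited liver genes. The lowest were Zkscan8 (0.04) and Zkscan4 (0.34), beside the olfactory receptor genes. The domain that holds the cluster begins at 65954657, the far side of a gap without positions of 447 kb, the only gap above 300 kb on the chromosome.

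**Figure D4:**
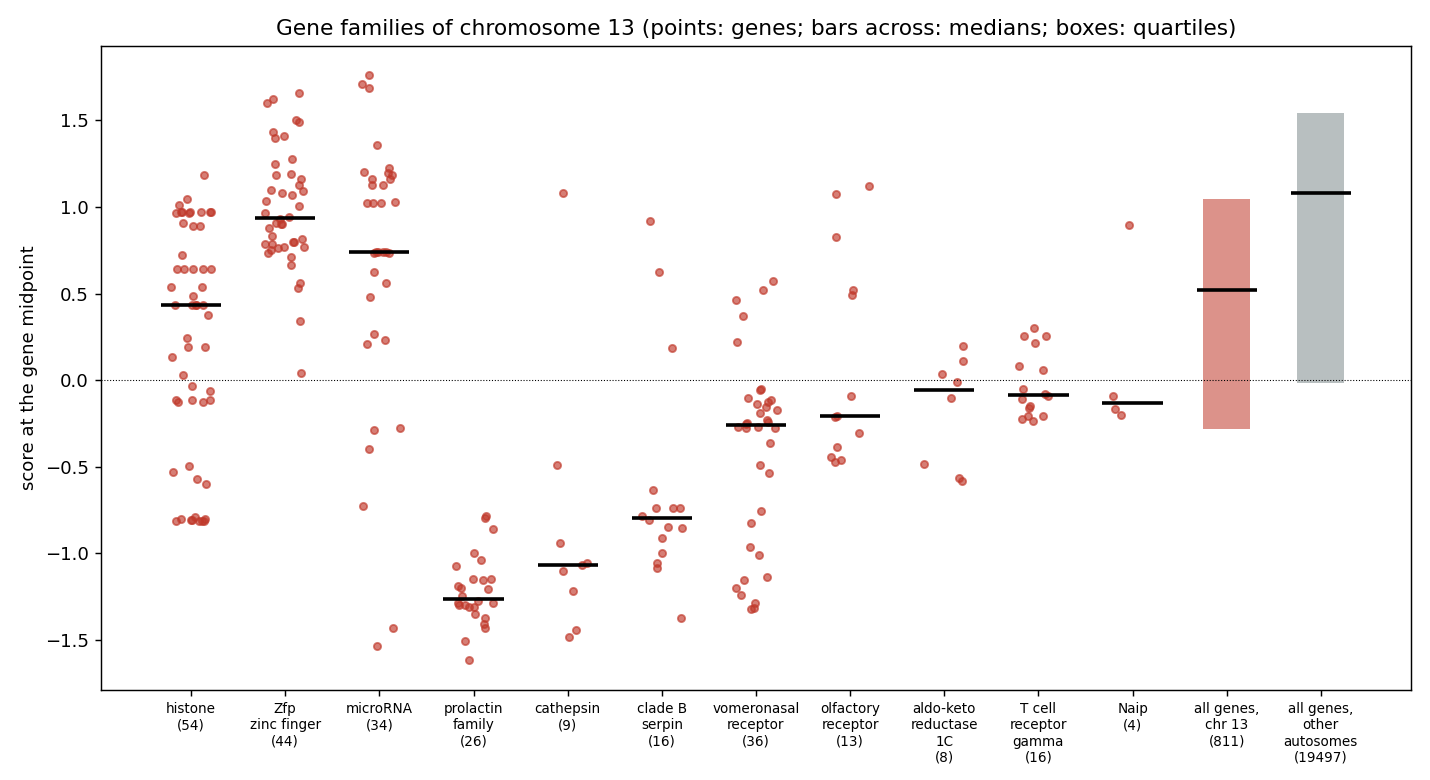
Each point is the score at the midpoint of 1 gene of chromosome 13, by family with the number of genes in brackets, and lines across are medians. The 2 boxes give the quartiles of all protein-coding genes of chromosome 13 (red, median 0.52) and of the other autosomes (grey, median 1.08). Zinc finger genes, taken by symbol, lie above 0, prolactin genes lie below it, and histone genes lie on both sides.

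Of the small clusters and families, some stayed close to 0 and others did not. Over all protein-coding genes 29.5% on chromosome 13 and 17.2% on all autosomes lay within 0.5 of 0. All 16 T cell receptor gamma genes, 19178042 to 19356476, lay within 0.5 of 0, from Trgv7 (-0.24) to Trgc4 (0.30), which rearrange in gamma-delta T cells. Their cluster is shorter than the 300 kb of smoothing, so they are not 16 separate measurements. The 8 aldo-keto reductase 1C genes ran from Akr1c20 (-0.58) to Akr1c18 (0.20), with 6 within 0.5. The Naip genes, sensors of bacterial flagellin and secretion needles, had -0.20 to -0.09 for Naip6, Naip5 and Naip2 and 0.89 for Naip1. Next to them the survival motor neuron gene Smn1 and its neighbour Serf1 both had -0.05. The 4 Forkhead genes, developmental factors, were above 0, from Foxq1 (0.12) to Foxd1 (0.96), while Irx4 (0.99) was early and its relatives Irx1 and Irx2 were late. Trim27 (1.39), Trim23 and Trim38 (-0.80) spanned both sides.

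Of the 10 longest protein-coding genes of chromosome 13, 8 contained a sign change, so a midpoint does not stand for the whole gene. Pde4d, a cAMP phosphodiesterase gene of 1302 kb (108654177 to 109955969), had -1.28 at its low-coordinate end, 0.27 at the midpoint and 0.45 at the other end, with 62.4% of its positions above 0. Ryr2 (554 kb) changed from -0.97 at the low-coordinate end to 1.05 at the other end, with -0.04 between. Adgrv1, an adhesion receptor gene of hair cells and photoreceptors, changed likewise from -0.74 to 0.88. Adarb2, a relative of RNA-editing enzymes, had -1.53 and 0.65 at its ends, and Sugct -0.72 and 0.59 with -1.65 between. Cdkal1, a tRNA-modifying enzyme gene, was positive at both ends (0.21 and 0.46) and -0.95 in the middle, with 2 sign changes. Mast4 (0.22 and -0.70) and Gmds (0.36 and -1.13) changed in the other direction. Mctp1 and Elmo1 (-0.49 at the midpoint) were negative at every position inside. Among the 167 genes of the lists 17 contained a sign change, 12 of them among the 31 channel, synapse and very long genes. That list was filled partly by gene length, so its count is not a trait of channel or synapse genes. Over all protein-coding genes of the chromosome the sign differed between the 2 ends in 5.43%, a measure that misses genes such as Cdkal1. Genes of like length on the other autosomes were not examined.

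**Figure D5:**
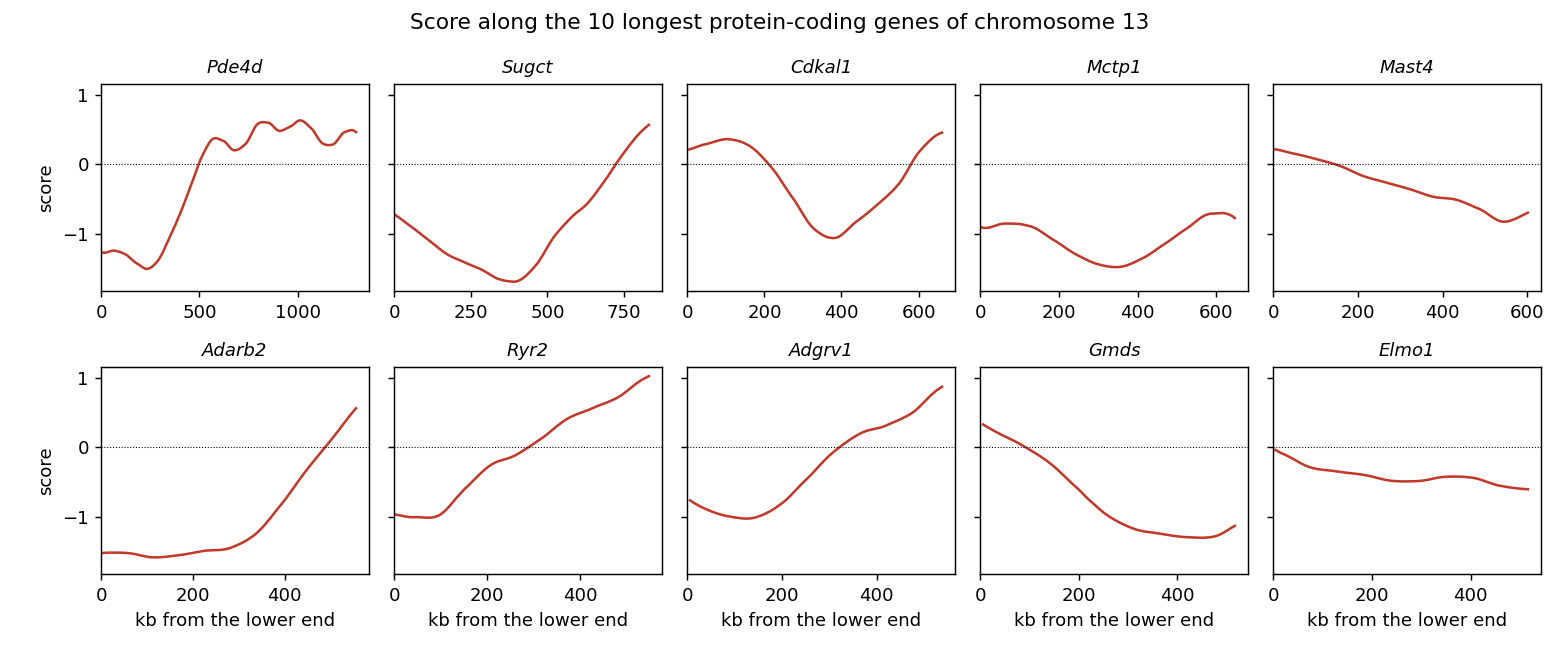
Each panel plots the early-against-late score along 1 of the 10 longest protein-coding genes, against the distance in kb from its low-coordinate end, on 1 common score axis. The line crosses 0 in 8 panels and stays below 0 in Mctp1 and Elmo1.

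MicroRNA genes of chromosome 13 lay above 0 in 28 of 34 (82.4%, median 0.74), against 76.1% on the other autosomes (median 1.12). Of all annotated miRNA loci on the autosomes 76.6% lay above 0. The let-7 cluster at 48536012 to 48538272 shared 1 position with a score of 1.02, and 9 of the 10 other loci with its seed lay above 0, between -1.42 at Mirlet7c-1 and 1.73 at Mirlet7g. miR-449a (1.13) and miR-449c (1.16) were early, as was Mir34a (1.59), which shares their seed, while Mir34b had -0.19. Mir9-2 stood at -0.29, below the other loci of miR-9, Mir9-1 (1.75) and Mir9-3 (1.59), which lie on other chromosomes. The cluster of Mir23b, Mir27b and Mir24-1 had 0.74, and Mir27a and Mir24-2, the related loci elsewhere, had 1.60. Mir6943 (1.76) was the highest, within the earliest long domain, and Mir3961 (-1.54) the lowest.

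The number of CpG in promoters fell from early to late genes on chromosome 13, as it did elsewhere. Promoters of 300 bases, from 250 before to 50 after the first listed start, were matched for 713 of 811 protein-coding genes. The median number of CpG dinucleotides was 17 for 360 early genes (above 0.5), 13 for 217 intermediate genes and 4 for 136 late genes (below -0.5), against 18, 9 and 3 on the other autosomes. At least 15 CpG were found in 56.7%, 43.8% and 24.3% of them, against 60.1%, 39.1% and 19.7%. Much of the low count of late genes was in the gene families: without members of the 15 families the medians were 21, 18 and 11, an alternative chosen after seeing the data. TATAAA, on either strand, was in 8.89%, 18.4% and 16.9% of early, intermediate and late promoters of chromosome 13, against 8.58%, 15.7% and 29.2% elsewhere. Of 51 histone promoters 60.8% held TATAAA, 84.3% CCAAT and 19.6% ATTTGCAT, on either strand, against 13.4%, 38.8% and 1.73% of all autosomal promoters. All 13 H2B promoters held CCAAT. ATTTGCAT was found in 3 of the 4 H2B promoters with scores below 0 and in 2 of the 9 above 0, numbers too small to compare.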

How the data were processed

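Values came from 1 deposited table of the early and the late library of 46C embryonic stem cells. The deposited values are a score that the authors computed from both libraries and smoothed over 300 kb, 1 per position. Reads were aligned with Bowtie2 to mm10, per the submitters' processing notes. How reads were counted, scaled and filtered is not given in the sources used here, and the depth is unknown.

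Of 384798 positions 4 had no value. Gene positions were those of RefSeq on GRCm38.p6, the same chromosome coordinates as mm10, and 348 genes of scaffolds were left out. A gene took the score nearest to its midpoint within 100 kb. Neighbouring positions on chromosome 13 lay a median of 5780 bp apart. Windows of 1 Mb needed 20 positions. Promoter and microRNA sequences came from RefSeq tables of the same build. Strand was used for promoters only, and exons and introns were not analysed here.

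With 1 library per fraction and a chromosome chosen by its spread, everything is descriptive. The chromosome, the 6 lists and the 15 families were chosen with earlier results of these data known. Named were the 4 highest and 4 lowest genes of lists, the 2 highest and 2 lowest of families, genes of the 5 longest domains and stretches and beside extreme positions, and the 10 longest genes. Some of these genes are not reported here. Other genes, among them those beside sign changes and within clusters, were chosen after their values were seen. Alternatives moved the zero point, the band, the minimum run, the gene's reference point and the window. The run-finding script was tested on simulated data. Python 3.11.15, pandas 2.3.3, numpy 2.4.6, scipy 1.17.1 and matplotlib 3.10.9 were used.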

Additional observations from a re-analysis of the deposited data

How the results depend on the processing

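Chromosome 13 had the narrowest spread of the 19 autosomes by interquartile range, by percentile range, by SD and with 1 position per 300 kb. Its share within 0.5 of 0 was 32.5%, against 19.7% on the other autosomes, with the band centred on each chromosome's own midpoint of percentiles 10 and 90, an alternative chosen after seeing the data. Bands of 0.25 and 0.75 gave 16.5% (against 9.72%) and 47.6% (against 30.6%).

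What is called early depends on the zero point. With zero at the autosomal median of -0.30 the median of chromosome 13 was reversed to 0.083 (against -0.0070), and 52.8% of its positions (against 49.9%) and 75.6% of its protein-coding genes (against 79.4%) lay above 0. With all annotated genes 59.3% lay above 0 (against 64.7%). Medians of 7 lists and families were reversed, an alternative chosen after seeing the data, to 0.0028 (channel, synapse and very long genes), 0.042 (matrix and adhesion), 0.17 (Naip), 0.22 (T cell receptor gamma), 0.25 (aldo-keto reductase 1C), 0.097 (olfactory receptors) and 0.043 (vomeronasal receptors). Counts of runs depend on the minimum length. Early domains numbered 75 with no minimum and 27 with one of 600 kb, late domains 32 with 600 kb, and domains per 10 Mb 5.06 with 600 kb (against 4.24). Intermediate stretches numbered 12 with a band of 0.25, 76 with a minimum of 150 kb and 12 with 600 kb. Without family members late promoters had a median of 11 CpG. These shifts follow from how each alternative was built.

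Of 135 named genes 117 kept their sign with zero at the autosomal median. Those reversed were Amph (0.066), Ccnh (0.12), H1f4 (0.27), H2ac1 and H2bc1 (0.18), H2bc13 (0.19), Mir9-2 (0.016), Naip2 (0.21), Naip5 (0.14), Naip6 (0.10), Nr2f1 (0.16), Rbm24 (0.065), Ryr2 (0.26), Serf1 (0.26), Smn1 (0.25), Stmnd1 (0.072), Trgv7 (0.066) and Vps41 (0.064). At the low-coordinate end of the gene 127 kept their sign, and Adamts6 (0.14), Amph (0.027), Carmil1 (0.13), Cdkal1 (0.21), Chrm3 (0.023), Gmds (0.36), Mast4 (0.22) and Pde4d (-1.28) did not. At the high-coordinate end 125 did, and Adarb2 (0.65), Adgrv1 (0.88), Atxn1 (0.13), Cdkal1 (0.46), Gmpr (-0.025), H2bc6 (-0.033), Ryr2 (1.05), Sugct (0.59), Vps41 (0.11) and Zkscan8 (-0.046) did not.

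No paired analysis was possible because both libraries enter 1 score. With 1 library per fraction and unknown depth, the error of a score is unknown, and features shorter than the 300 kb of smoothing have no separate measurement.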

Other observations

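Classes of genes that do not encode proteins differed in how chromosome 13 stood to the other autosomes. Of 687 long non-coding RNA genes with a value 53.9% lay above 0 (median 0.14), against 63.2% of 11575 on the other autosomes (median 0.56). Pseudogenes had close shares, with 47.2% of 470 above 0 (median -0.09), against 47.1% of 8130 (median -0.14). Small nucleolar RNA genes, which guide the modification of ribosomal RNA, lay above 0 in 61.2% of 49 (median 0.45), against 47.1% of 1214 (median -0.17). These classes were chosen after their values were seen, and neighbouring genes share domains.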
